A study of Mus musculus with 32 samples.

Results

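The genes of the motile cilium were followed in whole-lung RNA from newborn mice. They were selected by gene name and not by a threshold on a measured value, although earlier results of these data were known when the names were listed. The set holds 19 listed genes (the transcription factor Foxj1, the radial spoke genes Rsph1, Rsph4a, Rsph9 and Lrrc23, the tektins Tekt1, Tekt2 and Tekt4, the central apparatus genes Spag6, Spag16, Spag17, Spef2 and Hydin, the axonemal ruler genes Ccdc39 and Ccdc40, and Dynlrb2, Tppp3, Map3k19 and Ak7) and the 14 axonemal dynein heavy chain genes on the array. These 33 genes, of 35715 gene names on the array, were read by 55 of its 55681 mouse probes. Of the 55 probes, 47 probes of 32 genes were bright enough to be tested in at least one comparison, 46 of them at P5 and 43 at P14. The single probe of Dnah3 was above background in no mouse, and the gene was not tested. Dnah1 was not tested among the P14 mice.

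Motile cilia are the beating hairs of multiciliated cells, which in the mouse lung line the conducting airways beside club cells and move mucus, while the alveoli carry none. Their core, the axoneme, is a ring of doublet microtubules around a central pair: dynein heavy chains are the motors that slide the doublets, radial spokes and the central apparatus steer the motors, tektins run along the doublet wall, and CCDC39 and CCDC40 form the ruler that spaces the arms and spokes. FOXJ1 is the transcription factor that switches this gene set on, together with factors of the RFX family, and human loss of DNAH5, DNAH9, DNAH11, CCDC39, CCDC40, RSPH1, RSPH4A, RSPH9, HYDIN, SPEF2 or FOXJ1 has been linked to primary ciliary dyskinesia or a related ciliopathy.

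The microRNA that the study blocked belongs to a family that is known for its role in multiciliated cells, where miR-34 and miR-449 microRNAs repress Ccp110, a brake on the growth of basal bodies into cilia. Members of the family with the seed of miR-34a-5p are shown because target sites are read mainly through the seed. The list is not complete, and miR-34c-5p and miR-449b are named only. Mature sequences are from RefSeq (GRCm38.p6), with the seed, bases 2 to 8, in capitals.
mmu-miR-34a-5p: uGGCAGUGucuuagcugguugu
mmu-miR-34b-5p: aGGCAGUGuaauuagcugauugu
mmu-miR-449a-5p: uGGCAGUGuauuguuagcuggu
mmu-miR-449c-5p: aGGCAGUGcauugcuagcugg
They lie at chr4:150068473-150068494 (plus strand), chr9:51103610-51103632 (minus), chr13:113037549-113037570 (plus) and chr13:113036008-113036028 (plus). The 4 seeds were identical, and the sequences differed outside the seed.

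Promoters of the members were read because the members varied together, as described below. RefSeq promoters of 300 bases (250 before and 50 after the start of the gene, GRCm38.p6) were at hand for 27 of the 33 genes, which had 30 promoters. Array genes were matched through their accession where possible, and the array's Spag6 is Spag6l in that table. The half-site of RFX factors, GTTGCC on either strand, was present in 13 of the 30 promoters (43.3%), against 12.5% of all 32851 promoters of the same length. It was also found in other ciliary lists, in 57.6% of 33 promoters of other axoneme and ciliated cell genes and 58.8% of 17 of intraflagellar transport and the primary cilium. The forkhead motif GTAAACA, which does not overlap the half-site, was present in 2 of the 30 (6.7%), against 3.6% of all. Stretches that end before the start of the gene are shown for 4 members that carried the half-site, with the half-site in capitals (GGCAAC is the same letters on the other strand).
Dynlrb2: ttcctgcctgGTTGCCtagcaacggg
Tekt1: ttctaactagGGCAACgttgcgtccg
Lrrc23: tcccgcccctGTTGCCataacaacaa
Spag16: ggggtaactaGGCAACgcgttgccgt
They lie at chr8:116504954-116504979 (plus strand), chr11:72361902-72361927 (minus), chr6:124779751-124779776 (minus) and chr1:69826849-69826874 (plus), with the half-site beginning 51, 35, 39 and 111 bases before the start of the gene. Tekt1, Lrrc23 and Spag16 each held a second exact half-site in the opposite orientation, beginning 15, 157 and 103 bases before the start. A match of letters is a description and does not show that a factor binds there.

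RNA came from 32 newborn wild-type C57Bl/6J mice, one mouse per one-colour Agilent array, 4 mice in each of 8 groups. Pups were kept in normoxia (21% O2) or in hyperoxia (85% O2), the model of bronchopulmonary dysplasia used in the study, and were injected intraperitoneally with antimiR-34a, a synthetic inhibitor of that microRNA, or with a scrambled control antimiR, so that the controls were injected too. Lungs were perfused and taken whole at P5 or P14, and mice of both sexes were used per the methods, without a label for each mouse. The RNA kit and the anaesthetic of the older mice are named differently by the labels and the methods, and the labels write the harvest times as P5.5 and P14.5. The 4 slides each held 1 age and 1 oxygen level, so that oxygen and age cannot be told apart from slide and scan, and the antimiR groups of a slide lay in different rows of arrays. Each array had between 33606 and 40774 probes well above background, and no spot was saturated. All levels are log2 signal set against each array's own 75th percentile, all differences are on the log2 scale, and a probe was called at a limma p-value of 0.05 after Benjamini-Hochberg adjustment over all tested probes. As the arrays read whole lung, fewer ciliated cells and less RNA per ciliated cell cannot be told apart.

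Foxj1 (probe at chr11:116192214-116192273, minus strand, mm9), the regulator that defines motile ciliated cells, was well above background in all 32 mice. At P5 in 21% O2 with scrambled antimiR its level was 1.35, 0.65, 0.43 and 1.37 in the 4 mice. In 85% O2 it was 0.89, 0.43, 0.58 and 0.70. The groups overlapped, and mice 1 and 4 of the first group lay above all of the second. At P14 the level was 0.65, 0.90, 0.30 and 0.69 in 21% O2 and 0.76, 0.72, 1.09 and 1.24 in 85% O2 with scrambled antimiR. With antimiR-34a it was 0.40, 0.67, 0.14 and 0.33 in 21% O2 and 1.07, 0.74, 0.90 and 1.85 in 85% O2. Only in the antimiR-34a mice at P14 were the 2 oxygen groups apart, by 0.76 (SE 0.215, n = 4 mice per group, limma adjusted p = 0.00695). In the scrambled antimiR mice the difference was 0.32 at P14 (SE 0.215, adjusted p = 0.215) and -0.30 at P5 (SE 0.195, adjusted p = 0.226), both by limma. The difference between these effects was not called at either age.

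The mean over the 32 tested genes, each centred on its own mean over all mice, showed that single mice stood apart inside 2 groups. At P5 in 21% O2 with scrambled antimiR it was 0.475, -0.044, -0.136 and 0.444 (mean 0.185 ± 0.32 SD, n = 4). At P14 in 85% O2 with antimiR-34a it was -0.002, -0.327, -0.045 and 0.645 (SD 0.411). By contrast, the 4 mice at P14 in 21% O2 with antimiR-34a lay between -0.18 and -0.14 (SD 0.015). Mice 1 and 4 of the first group and mouse 4 of the second were the 3 highest of all 32, and the score of club and secretory cell genes was also high in them, at 1.40, 1.32 and 1.98. It lay between -0.69 and 0.06 in the other mice of the first group and between -0.33 and -0.29 in those of the second. Mouse 4 of the first group also had a skeletal muscle score of 4.69, against at most 1.73 in any other mouse, a basal cell score of 3.46, against at most 0.581, and an oesophagus and squamous epithelium score of 1.85, against at most 0.35. The part of such tissue in the cilia gene level of this mouse was not tested.

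**Figure D1:**
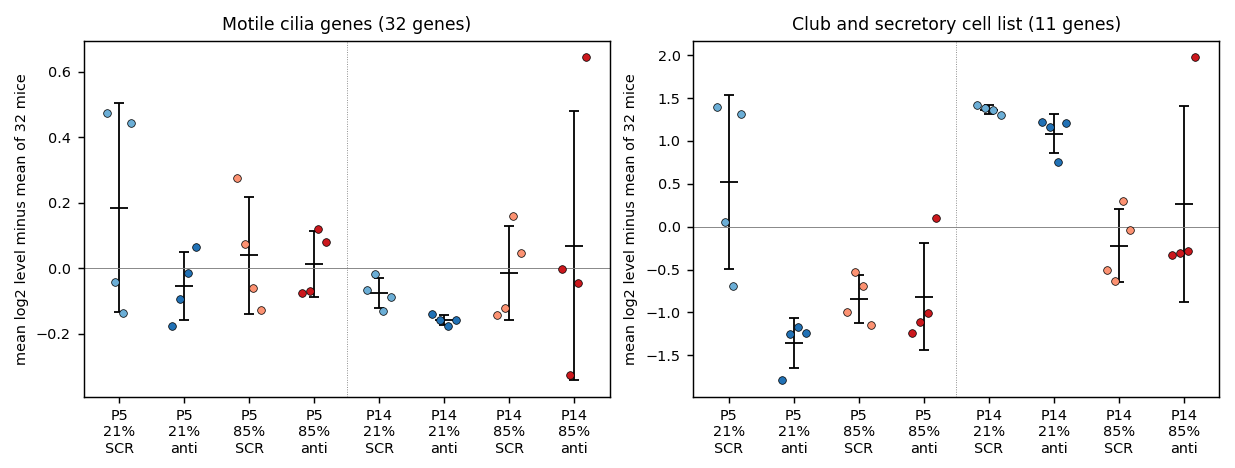
Mean centred log2 level of the motile cilia genes and of the club and secretory cell genes in each mouse, by age, oxygen and antimiR (SCR, scrambled antimiR; anti, antimiR-34a); points are mice and bars are mean ± SD, n = 4. The P5 21% O2 scrambled antimiR mice split into a higher and a lower pair, and 1 P14 85% O2 antimiR-34a mouse, at 0.65, lay above the other 3.

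From mouse to mouse within a group, most of the genes moved as one. When each gene was set against the mean of the other members, after removal of the 8 group means, Pearson's r over the 32 mice had a median of 0.849, and 22 of the 32 genes were above 0.8. The 39112 other tested probes had a median r of -0.02 with the same mean, and 299 of them were above 0.8. The closest were Tekt4 (r = 0.947), a tektin of the doublet wall, Dynlrb2 (0.946), a dynein light chain, Spef2 (0.938) of the central apparatus, Tekt1 (0.936), Hydin (0.935), Dnah10 (0.935) and Rsph1 (0.934). These r are descriptions: the points share arrays and scaling. Without the 3 mice named above the median r was 0.626, with 6 genes above 0.8, so the tightness rested in part on those mice. Within the P5 mice alone it was 0.862 and within the P14 mice 0.866, and it was 0.824 in the 21% O2 mice and 0.897 in the 85% O2 mice. None of these subsets was free of those 3 mice, so they do not show the tightness without them.

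A few members did not move with the rest. Dnah14 had r = -0.32, Dnah8 0.05, Tppp3 0.28, Dnah11 0.31 and Dnah17 0.39, and Dnah1 and Rsph4a had 0.47 each. DNAH8, DNAH17 and DNAH1 are known from the sperm flagellum, and TPPP3 is a microtubule-binding protein of other cells too. Dnah1 and Rsph4a thus shared part of the variation of the others, and the other 5 had less. Dnah14 and Dnah1 were also near background, above it in 2 to 4 and in 3 to 4 mice of a group. Of the 27 genes with a promoter at hand, 20 had r above 0.8, and 12 of these 20 carried the RFX half-site, including Dynlrb2, Tekt1, Lrrc23 and Spag16 shown above. None of the 7 others did. That split was made after the values were seen.

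**Figure D2:**
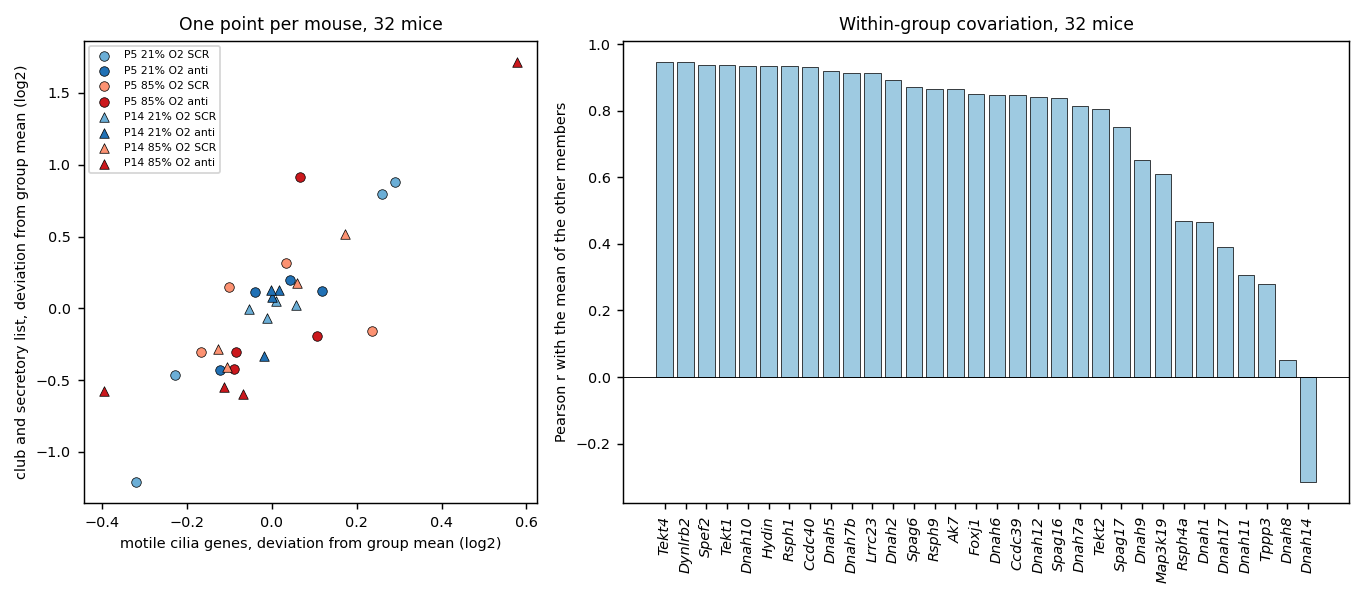
Left, mean deviation of the motile cilia genes from the group mean against that of the club and secretory cell genes, both in log2 units, for each of the 32 mice; right, Pearson's r of each gene with the mean of the other members. Most bars lie above 0.8, and Dnah14, Dnah8, Tppp3 and Dnah11 lie at or below 0.31.

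Other axonemal genes and secretory genes varied with the members. The mean deviation of the members had r = 0.977 (Spearman's rho 0.953) with that of 17 dynein arm chains, docking and assembly factors, 0.974 (0.933) with 34 other axoneme and ciliated cell genes, and 0.887 (0.858) with 15 regulators of multiciliogenesis, over the 32 mice. It was 0.85 (0.796) with 11 club and secretory cell genes, 0.713 (0.803) with 8 neuroendocrine genes, -0.15 (-0.07) with 10 type II pneumocyte genes and -0.79 (-0.53) with 10 type I pneumocyte genes. For 21 genes of intraflagellar transport and the primary cilium it was 0.733, with a lower rho of 0.473, and fell to 0.425 without the 2 mice farthest from the median. Without the same 2 mice, r of the other lists was 0.96, 0.951, 0.849, 0.783, 0.767, -0.02 and -0.55 in the same order. Outside all lists, the genes closest to the members were Nek5 (0.963), Cfap57 (0.96), 3300002A11Rik (0.953), 1600029I14Rik (0.951), Lrrc51 (0.948), Styxl1 (0.943), Cfap126 (0.943), Mdh1b (0.942), Agr3 (0.939) and 1700016K19Rik (0.938).

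The secretory genes with the widest spread were those known from the large airways and the nose, named here after their values were seen. Scgb3a1, a secretoglobin of the proximal airway, had levels of 5.12, 2.26, 0.25 and 4.88 in the P5 21% O2 scrambled antimiR mice, and of -0.76, -0.31, -0.12 and 4.87 in the P14 85% O2 antimiR-34a mice. Muc5b, a gel-forming mucin, had 2.67, -0.30, -1.84 and 2.36 in the first of these groups. The same mice were high as for the cilia genes. Scgb1a1, the secretoglobin that marks club cells along the whole airway, stayed between 8.13 and 8.31 in that group. Every other gene of the list was highest in mice 1 and 4 there, some by little. Cyp2f2 had 6.62, 6.20, 6.18 and 6.65, and Aldh1a7 had 3.69, 3.43, 3.335 and 3.77. In the P14 21% O2 scrambled antimiR mice Scgb3a1 was high in all 4, from 4.602 to 4.914, while their member scores were low, from -0.13 to -0.02. How much large airway each sample held was not recorded in the sources used here, and its part in the results was not tested.

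Hyperoxia at P5 was the first comparison. In the scrambled antimiR mice no member probe was called higher and 9 of 46 were called lower, against 17.5% and 26.4% of all tested probes. On the brightest probe of each gene these were Dnah8, Lrrc23, Tekt2, Dnah10, Dnah7a and Rsph1. The rest were dimmer probes of Hydin, Dnah7b and Map3k19, whose brightest probes were not called. The median difference over the 32 genes was -0.08, that of all tested probes was also slightly negative, at -0.07, and 12 genes were positive. The median of the genes changed sign, to 0.025, without mouse 1 in 21% O2, and was -0.186 without mouse 3. In the antimiR-34a mice 7 member probes were called higher and 3 lower, against 17.2% and 29.5% of all probes. The genes called higher were Dnah12, Ccdc40, Rsph9, Dnah11 and Tppp3, and those called lower were Dnah8 and Tekt2. The median over the genes was 0.16 and 22 genes were positive, where all probes had -0.09. That median of the genes ran from 0.077 to 0.218 as single mice were left out. These counts moved with single mice: the 9 became 5, 4 and 4 without mouse 2, 3 or 4 in 85% O2 with scrambled antimiR, and the 10 became 5 and 6 without mouse 1 or 3 in 21% O2 and 6 without mouse 1 or 4 in 85% O2 with antimiR-34a. In both antimiR groups the share of member probes called lower was below that of all probes. The comparisons of 85% O2 with 21% O2 and of antimiR-34a with scrambled antimiR share mice, so their values are given side by side.

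Dnah8 (chr17:31012150-31012209, plus strand, mm9), a dynein heavy chain best known from sperm, fell furthest. At P5 with scrambled antimiR its levels were 1.02, 1.20, 1.29 and 1.05 in 21% O2 and -0.26, 0.21, -0.19 and 0.06 in 85% O2. With antimiR-34a they were 1.34, 1.33, 1.09 and 1.37 against 0.33, 0.36, 0.18 and 0.26. Every mouse in 85% O2 lay below every mouse in 21% O2. The fall was 2.28-fold (-1.19, SE 0.104, limma adjusted p = 1.06e-06) with scrambled antimiR and 2-fold (-1.001, SE 0.104, adjusted p = 4.12e-06) with antimiR-34a. Lrrc23, a radial spoke protein, had 2.47, 1.78, 1.55 and 2.43 in 21% O2 and 1.35, 1.44, 1.05 and 0.94 in 85% O2 with scrambled antimiR. These groups did not overlap and differed by -0.86 (SE 0.189, limma adjusted p = 0.00217). With antimiR-34a Lrrc23 had 1.14, 1.32, 1.40 and 1.29 in 21% O2 and 1.10, 1.18, 1.49 and 1.45 in 85% O2, a difference of 0.02 (SE 0.189). The difference between the effects was 0.88 (SE 0.267, limma adjusted p = 0.265) and was not called.

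Tekt2, a tektin, was lower in 85% O2 in both antimiR groups at P5. Its levels were 0.36, -0.05, -0.26 and 0.29 against -0.25, -0.55, -0.62 and -0.74 with scrambled antimiR, which overlapped slightly, and -0.18, -0.13, 0.10 and 0.06 against -0.60, -0.64, -0.59 and -0.69 with antimiR-34a, which did not overlap. The differences were -0.63 (SE 0.131, limma adjusted p = 0.00164) and -0.59 (SE 0.131, adjusted p = 0.00215). Rsph9, Ccdc40 and Dnah12 were called higher in the antimiR-34a mice and not in the scrambled antimiR mice, but the difference between these effects was not called for any of them. Rsph9, of the radial spoke head, had 1.70, 1.78, 1.86 and 1.73 against 2.09, 2.12, 2.23 and 2.03, a rise of 0.35 (SE 0.102, limma adjusted p = 0.0111). Ccdc40 had -1.12, -1.01, -0.92 and -1.02 against -0.65, -0.76, -0.40 and -0.53, a rise of 0.43 (SE 0.161, limma adjusted p = 0.0395). Dnah12, an inner arm heavy chain, had -2.13, -1.81, -1.78 and -1.68 against -1.40, -1.46, -1.20 and -1.34, a rise of 0.50 (SE 0.184, limma adjusted p = 0.0373), while its other probe had the opposite sign, -0.30 (SE 0.227, adjusted p = 0.296). The calls of Ccdc40 and Dnah12 were lost in 9 and 8 of 17 alternatives.

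**Figure D3:**
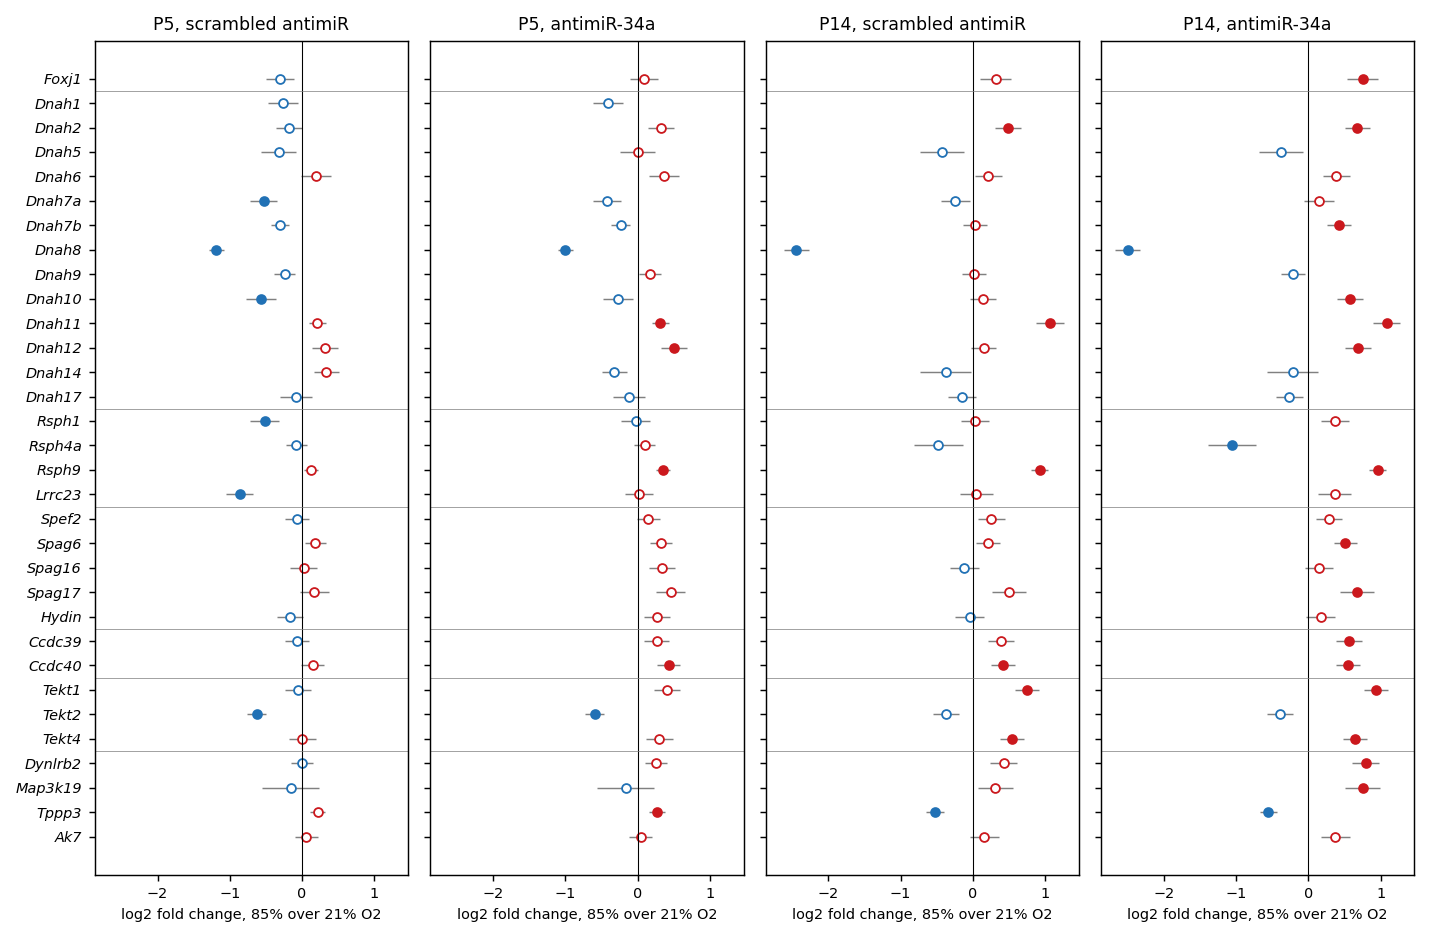
Log2 difference of 85% O2 from 21% O2 for each motile cilia gene on its brightest probe, in scrambled antimiR and antimiR-34a mice at P5 and P14; bars are standard errors and filled points were called by limma at an adjusted p of 0.05. Dnah8 lies lowest in all 4 comparisons, and Dnah11, Rsph9 and Tekt1 lie highest at P14.

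At P14 the members had more calls, in a comparison where most of the array was called. With scrambled antimiR 12 of 43 member probes were called higher and 3 lower, against 28.4% and 32.4% of all probes. On the brightest probes Dnah11, Rsph9, Tekt1, Tekt4, Dnah2 and Ccdc40 were higher, and Dnah8 and Tppp3 were lower. With antimiR-34a 21 member probes were called higher and 4 lower, against 27.8% and 37.8% of all probes. There 15 genes were higher, those 6 and Foxj1, Dynlrb2, Map3k19, Dnah12, Spag17, Dnah10, Ccdc39, Spag6 and Dnah7b, and Dnah8, Tppp3 and Rsph4a were lower. The median over 31 genes was 0.15 and 0.39, where all probes had -0.07 and -0.11. The antimiR-34a value moved with single mice: it was 0.15 without mouse 4 in 85% O2, the mouse with the high club and secretory cell score, and 0.61 without mouse 2.

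Dnah8 was again the member with the widest difference at P14. Its levels were 1.65, 1.66, 1.82 and 1.41 in 21% O2 and -0.62, -1.12, -0.59 and -0.92 in 85% O2 with scrambled antimiR. With antimiR-34a they were 1.63, 1.51, 1.57 and 1.52 against -0.97, -1.47, -0.53 and -0.81. The groups were far apart and the 4 mice of each lay close together. It was 5.44-fold lower (-2.44, SE 0.171, limma adjusted p = 7.82e-08) and 5.66-fold lower (-2.50, SE 0.171, adjusted p = 6.17e-08). A dimmer probe of Dnah8 at chr17:30956113-30956172 was above background in all 8 mice in 21% O2 at P14 and in none in 85% O2. On it the level in 85% O2 was at least 1.81-fold lower with scrambled antimiR and at least 2.29-fold lower with antimiR-34a, taking the faintest signal well above background on each array as the bound. The limma adjusted p was 1.08e-05 and 7.71e-06, but this probe passed the filter only through the mice in which it was high, so these p-values are given as a description and support nothing. It is one of the 3 and of the 4 probes counted as lower at P14.

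Dnah11 (chr12:119116456-119116515, minus strand, mm9), an outer arm heavy chain of airway cilia, rose. With scrambled antimiR it had -0.43, -0.54, -0.45 and -0.59 in 21% O2 and 0.37, 0.68, 0.53 and 0.67 in 85% O2, 2.09-fold higher (1.07, SE 0.188, limma adjusted p = 0.000252). With antimiR-34a it had -0.55, -0.70, -0.71 and -0.77 against 0.77, -0.35, 0.75 and 0.42, 2.12-fold higher (1.08, SE 0.188, limma adjusted p = 0.000187). No group overlapped its counterpart, although mouse 2 in 85% O2 with antimiR-34a lay near the 21% O2 mice. Rsph9 (chr17:46266279-46266338, minus) had 1.37, 1.52, 1.51 and 1.43 against 2.22, 2.30, 2.57 and 2.44 with scrambled antimiR, 1.9-fold higher (0.93, SE 0.116, limma adjusted p = 1.45e-05). With antimiR-34a it had 1.32, 1.42, 1.49 and 1.39 against 2.37, 2.01, 2.41 and 2.67, 1.94-fold higher (0.96, SE 0.116, limma adjusted p = 9.26e-06). All 8 mice in 85% O2 were above all 8 in 21% O2.

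Tekt1 (chr11:72158231-72158290, minus) had 1.24, 1.18, 1.17 and 0.91 in 21% O2 and 1.82, 1.72, 2.00 and 1.95 in 85% O2 with scrambled antimiR, 1.67-fold higher (0.74, SE 0.166, limma adjusted p = 0.00155). With antimiR-34a it had 1.05, 0.88, 0.76 and 0.93 against 1.74, 1.48, 1.67 and 2.46, 1.91-fold higher (0.93, SE 0.166, limma adjusted p = 0.000231). Mouse 4 of the last group was the highest, as for the set as a whole. Tekt4 had 0.60, 0.60, 0.50 and 0.50 against 0.94, 0.94, 1.26 and 1.23 with scrambled antimiR, a difference of 0.54 (SE 0.166, limma adjusted p = 0.012), and differed by 0.65 with antimiR-34a. Dynlrb2 had 2.99, 2.82, 2.80 and 2.97 against 3.53, 3.30, 3.52 and 4.41 with antimiR-34a, a difference of 0.79 (SE 0.188, limma adjusted p = 0.00208). With scrambled antimiR it had 3.11, 3.20, 3.22 and 3.04 against 3.35, 3.40, 3.77 and 3.74, which did not overlap but were not called at 0.43 (SE 0.188, adjusted p = 0.0638). The difference between these effects was not called.

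Tppp3 (chr8:107991755-107991814, minus) went the other way at P14. It had 4.02, 4.14, 4.26 and 4.14 in 21% O2 and 3.79, 3.70, 3.42 and 3.56 in 85% O2 with scrambled antimiR, a difference of -0.52 (SE 0.121, limma adjusted p = 0.00197). With antimiR-34a it had 3.81, 3.98, 4.05 and 4.16 against 3.598, 3.095, 3.452 and 3.632, a difference of -0.55 (SE 0.121, limma adjusted p = 0.00118). Rsph4a, a radial spoke head protein, fell by 1.06 with antimiR-34a (limma adjusted p = 0.013), with levels of -1.76, -0.57, -0.48 and -0.54 in 21% O2 and -2.02, -2.30, -2.02 and -1.25 in 85% O2, which overlapped. Its other probe, 0.3 kb away, differed by -0.30 (SE 0.258, adjusted p = 0.328). Dnah6, an inner arm chain, was not called. It had 1.23, 1.48, 1.34 and 1.24 against 1.32, 1.58, 1.48 and 1.76 with scrambled antimiR, and Spef2, also not called, had -0.70, -0.61, -0.73 and -0.59 against -0.62, -0.50, -0.32 and -0.16, with differences of 0.21 and 0.26. Both pairs of groups overlapped. On their brightest probes Ak7, Dnah1, Dnah14, Dnah17, Dnah5, Dnah6, Dnah9, Hydin, Spag16 and Spef2 were not called in any oxygen comparison, with differences from -0.426 to 0.386.

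**Figure D4:**
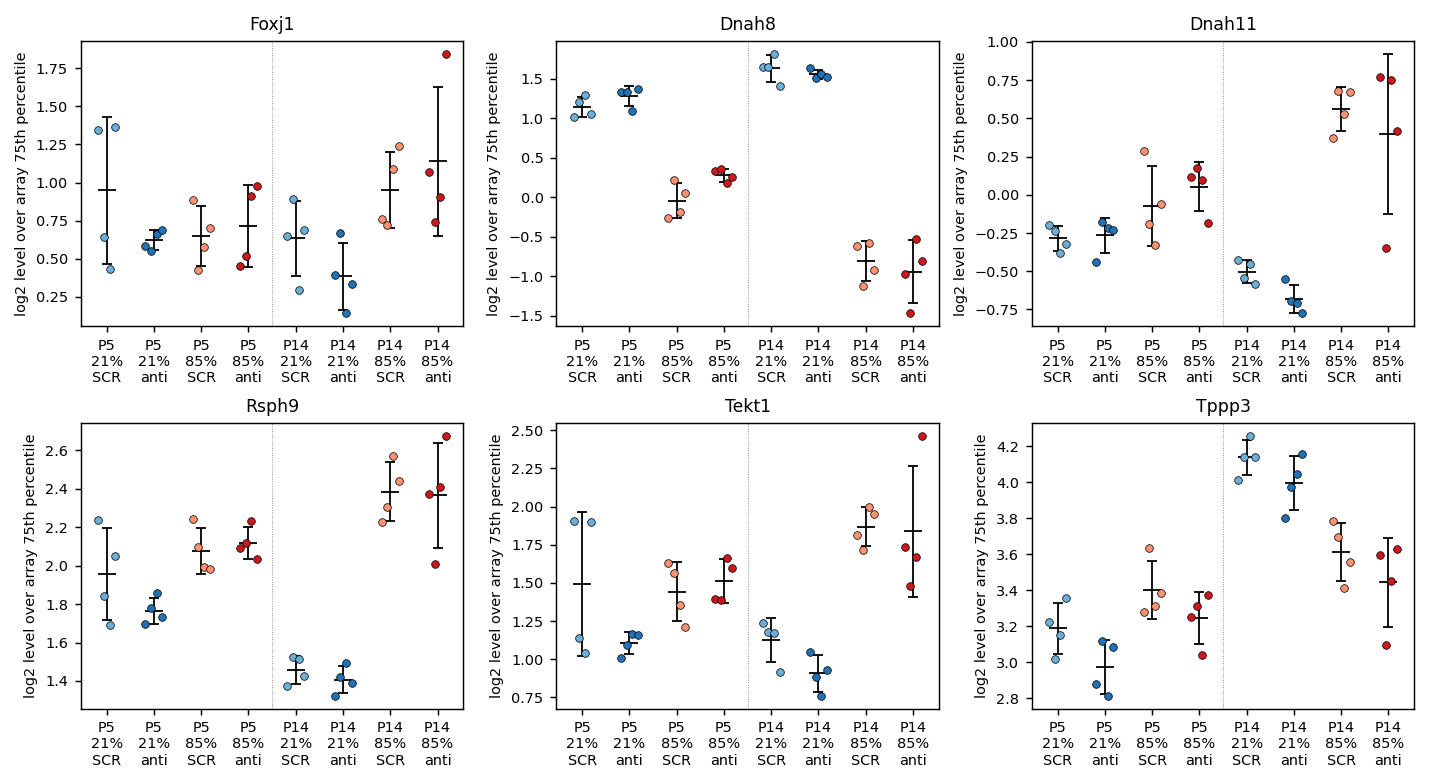
Log2 level, set against each array's own 75th percentile, in each mouse for Foxj1, Dnah8, Dnah11, Rsph9, Tekt1 and Tppp3, by age, oxygen and antimiR; points are mice and bars are mean ± SD, n = 4. Dnah8 falls in 85% O2 at both ages, whereas Dnah11, Rsph9 and Tekt1 rise and Tppp3 falls at P14.

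Whether the oxygen effect changed with age was tested in the scrambled antimiR mice as an interaction over all 32 arrays. Of 47 member probes 11 were called higher at P14 than at P5 in this effect and 3 lower, against 23% and 17.9% of all probes. The dim Dnah8 probe at chr17:30956113-30956172, which passed the filter only through mice in which it was high, is one of the 3. The effect on Dnah8 went from -1.19 at P5 to -2.44 at P14, a change of -1.26 (limma adjusted p = 3.35e-05). That on Tppp3 went from 0.22 to -0.52, a change of sign and of -0.74 (limma adjusted p = 0.000736). The effect was more positive at P14 for Dnah11 (0.21 at P5 and 1.07 at P14), Rsph9 (0.12 and 0.93), Tekt1 (-0.05 and 0.74), Dnah2 (-0.18 and 0.48), Dnah10 (-0.57 and 0.14) and Lrrc23, all with the change called by limma. The changes of Dnah10 and Dnah2 were the least stable, with the call lost in 14 and 12 of 24 alternatives. For Foxj1 it was larger by 0.62 (SE 0.299, limma adjusted p = 0.101) and was not called. For Lrrc23 the oxygen difference itself was -0.86 at P5 and 0.045 at P14.

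Between P5 and P14 in 21% O2, with scrambled antimiR, 4 of 47 member probes were called higher and 17 lower, against 27.8% and 23.5% of all probes. Genes called lower were Dnah1, Dnah2, Tekt2, Spag17, Ccdc39, Spef2, Dynlrb2, Dnah7a, Rsph9, Dnah7b and Ccdc40, from -0.79 to -0.44, and those higher were Tppp3, Dnah14 and Dnah8. The -0.79 is that of Dnah1, which passed the filter only through P5 groups, where it was high, and gives no firm difference. Dnah8 was higher by 0.49 on its brightest probe. Both dimmer probes of the gene were at background in some mice and give no firm difference: that at chr17:30956113-30956172 was above background in 1 of 4 mice at P5 and 4 of 4 at P14, and that at chr17:30800381-30800440 in 4 of 4 at P5 and 2 of 4 at P14. Both are among the called probes counted above, and each passed the filter only through mice in which it was high. The median over the genes was -0.35, where all probes had 0.04. The count rested on the mice that stood apart at P5: it was 10 without mouse 1 and 11 without mouse 4 of the P5 group. Tppp3 was the clearest, with 3.22, 3.02, 3.15 and 3.36 at P5 and 4.02 to 4.26 at P14, 1.93-fold higher (0.95, SE 0.114, limma adjusted p = 1.96e-07). Dnah2, an inner arm chain, had 1.21, 0.51, 0.30 and 1.13 at P5 and 0.10, 0.18, 0.09 and -0.36 at P14, 1.72-fold lower (-0.78, SE 0.183, limma adjusted p = 0.00094). Spag17, of the central apparatus, had -3.596, -4.093, -4.522 and -3.953 against -4.722, -4.552, -4.782 and -4.597, 1.54-fold lower (-0.62, SE 0.225, limma adjusted p = 0.023). All P14 mice lay below the P5 mice for both genes, by a narrow margin for Spag17.

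Dnah1 and Dnah14, also called in that comparison with groups that did not overlap, were near background and give no firm difference. Dnah1 was above background in 4 of 4 mice at P5 and 3 of 4 at P14, and Dnah14 in 2 of 4 and 4 of 4. The Dnah1 probe passed the filter only through P5 groups, where it was high. Dnah1 had -4.28, -4.78, -4.65 and -3.86 at P5 and -5.08, -4.94, -5.12 and -5.57 at P14, and Dnah14 had -5.85, -5.61, -5.31 and -5.86 against -4.91, -5.12, -5.28 and -4.39. In 85% O2, 4 member probes were called higher and 5 lower at P14, against 26% and 16.2% of all probes, with a median of -0.10 over the genes and 0.09 over all probes. One of the 5 is the dim Dnah8 probe at chr17:30956113-30956172, above background in 2 of 4 mice at P5 and in none at P14. Dnah11 was higher by 0.64 (limma adjusted p = 0.00218), with -0.33 to 0.29 at P5 and 0.37 to 0.68 at P14. Rsph9 was also called higher, at 0.31. Dnah8 (-0.77, limma adjusted p = 0.000126), Dnah12 (-0.49, adjusted p = 0.0381) and Tekt2 (-0.41, adjusted p = 0.044) were lower. Dnah1 was also called lower (-0.74, limma adjusted p = 0.0319). Its probe passed the filter only through P5 groups, where it was high, so this p-value is a description and supports nothing. The calls of Dnah12 and Rsph9 were each lost in 7 of 17 alternatives, that of Tekt2 in 9 of 17, and that of Dnah1 in 7 of 16, with a turn to 0.138 under normexp background correction. Dnah12 had -0.88, -1.05, -1.33 and -1.38 at P5 and -1.84, -1.89, -1.41 and -1.44 at P14, which did not overlap. Its other probe had the opposite sign, 0.46 (SE 0.211, limma adjusted p = 0.0821). Without mouse 2 of the P5 group the count of called probes was 5. The median over the genes ran from -0.17 to -0.004 as single mice were left out.

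The antimiRs were compared within each combination of age and oxygen. At P5 in 21% O2, 1 of 46 member probes was called, lower, against 0.136% of all probes, and 13 were below 0.05 before adjustment. Of all 35981 tested probes 6266 were below 0.05 before adjustment. Of the 32 genes 27 had a negative difference, the lowest -0.77 for Lrrc23 (SE 0.189, limma adjusted p = 0.099), and the median was -0.31, where all probes had 0.04. That median of the members ran from -0.467 to -0.192 as single mice were left out. Foxj1 differed by -0.33 (SE 0.195, limma adjusted p = 0.388), with 0.59, 0.55, 0.66 and 0.69 in the antimiR-34a mice beside the 1.35, 0.65, 0.43 and 1.37 of the scrambled antimiR mice. Mice 1 and 4 of the scrambled antimiR group, with the high secretory scores, were above and the other 2 within or close to the antimiR-34a range. The called probe was the dimmer of 2 for Map3k19, a kinase gene listed with ciliated cells, at chr1:129714304-129714363. It had -4.35, -3.25, -4.12 and -4.20 with scrambled antimiR and -5.68, -5.40, -5.20 and -5.61 with antimiR-34a, 2.81-fold lower (-1.49, SE 0.206, limma adjusted p = 0.0231), while the brighter probe of the gene, 0.3 kb away, differed by 0.23 (SE 0.397) and was not called. The call was lost without mouse 1, 2 or 4 of the antimiR-34a group.

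In the other 3 comparisons limma called no member probe. At P5 in 85% O2 there were 2 member probes below 0.05 before adjustment, against 4684 of all 35981 probes. There 18 of 32 genes were negative, and 0.0639% of all probes were called. At P14 in 21% O2 there was 1 below 0.05 before adjustment, against 4052 of all 38452 probes, and 0% of all probes were called. Of 31 genes 24 were negative with a median of -0.15, where all probes had 0.004. At P14 in 85% O2 there were 2 below 0.05 before adjustment, against 6414 of all 38452 probes, and 2.66% of all probes were called. Of 31 genes 21 were positive with a median of 0.06, where all probes had -0.04. That median of the members was -0.14 without mouse 4 and 0.198 without mouse 2 of the antimiR-34a group, and -0.001 without mouse 1 of the scrambled antimiR group, so its direction was not stable. The methods' approximate test also called no member probe in these 3, with 0, 7 and 1 below 0.05 before adjustment, while limma with array weights called 0, 8 and 0. Shares of all probes were not counted for that test or under array weights, so these counts have no background beside them. The median standard error of a member gene was 0.178 at P5 and 0.186 at P14. The antimiR effect did not differ by the call between oxygen levels for any of the 46 member probes at P5 (0.0556% of all probes, 4 below 0.05 before adjustment) or of the 43 at P14 (0.0884%, 1 below), although limma with array weights called 1 and 2. Of all probes, 3909 of 35981 at P5 and 5765 of 38452 at P14 were below 0.05 before adjustment for this difference. Ccp110, the textbook target of the family shown above, differed between antimiRs by -0.038 and -0.037 at P5 and by -0.027 and 0.145 at P14, in 21% and 85% O2, none called by limma. It differed by -0.365 between oxygen levels at P5 in both antimiR groups (limma adjusted p = 0.00043 and 0.000377).

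For 12 member genes more than 1 probe was tested, and the probes of a gene did not always give the same call. With scrambled antimiR at P14, all probes of 2 genes were called the same way, none of 5 genes, and some of 4 genes, and in no gene were calls opposed. The 2 genes were Tekt1 and Dnah8. The dimmer Dnah8 probe passed the filter only through mice in which it was high, so its agreement supports nothing. Hydin, of the central apparatus, differed by -0.04 on its brightest probe (SE 0.201) and by 0.71 on a dimmer probe 255 kb upstream (SE 0.254, limma adjusted p = 0.0259). Dnah7b differed by 0.03 (SE 0.168) and, 249 kb upstream, by 0.83 (SE 0.201, limma adjusted p = 0.00278). Dnah12 differed by 0.15 (SE 0.179) and, 161.8 kb upstream, by 0.52 (SE 0.177, limma adjusted p = 0.0213). For these 3 long genes the call depended on the probe. At P5 with scrambled antimiR the same upstream probes went the other way, at -0.64 for Hydin and -0.48 for Dnah7b, both called lower, and -0.49 for Dnah12, not called. Dnah7a was the fourth such gene, with -0.24 on its brightest probe (SE 0.202) and 0.69 and 0.90 on 2 dimmer probes, both called higher by limma. The brightest Dnah7a probe is placed at chr1:46850378-46850437 on the plus strand, nearer the Dnah7b probes than the Dnah7a probe at chr1:53634105-53634164 on the minus strand. Dnah7a and Dnah7b are near-identical copies, so which of them the values printed for Dnah7a read is uncertain. For Tekt1, with a second probe 0.1 kb away, the differences were 0.74 and 0.58. Exons are not given, as no gene models of mm9 were used here.

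**Figure D5:**
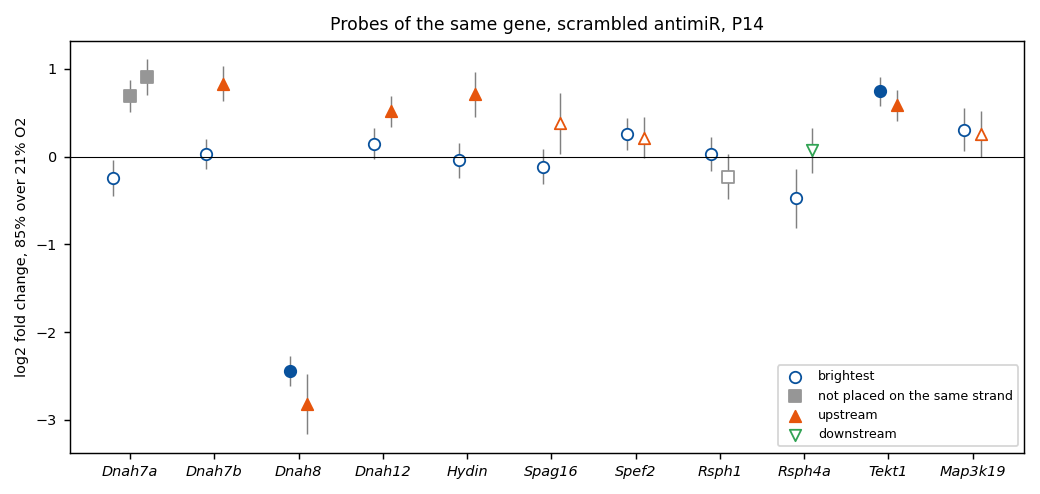
Log2 difference of 85% O2 from 21% O2 at P14 with scrambled antimiR for each tested probe of the 11 genes with more than 1; bars are standard errors and filled points were called by limma. Upstream probes of Hydin, Dnah7b and Dnah12 were called higher, at 0.71, 0.83 and 0.52, while the brightest probes of these genes were not.

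Regulators of multiciliogenesis, which varied with the members between mice, were counted too. At P5, 8 of 15 multiciliogenesis regulators were called lower in 85% O2 with scrambled antimiR and 6 with antimiR-34a, none higher, with medians of -0.59 and -0.37, where 26.4% and 29.5% of all tested probes were lower and 17.5% and 17.2% higher. Gmnc and Mcidas, which start the multiciliated programme, differed by -1.53 and -0.69, Rfx3 by -1.41, and E2f4, a partner of Mcidas with roles in many cells, by -1.41, all called by limma with scrambled antimiR. At P14, 2 were called higher and 3 lower with scrambled antimiR, 6 and 3 with antimiR-34a, and both medians were 0.23, where 28.4% and 27.8% of all probes were higher and 32.4% and 37.8% lower. Mcidas differed by -2.31 and -3.06 at P14, E2f4 by -1.41 and -1.49, and Cdc20b by 1.21 and 0.72, all called, whereas Rfx3 differed by 0.16 and 0.22 and was not.

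Other structural genes of the cilium were counted in the same way. Of 17 dynein arm chains, docking and assembly factors, 10 were called lower and none higher with scrambled antimiR at P5, with a median of -0.47, and 5 lower and 1 higher with antimiR-34a, with a median of -0.22. With scrambled antimiR 1 was called higher and 4 lower at P14, and 6 and 4 at P14 with antimiR-34a. Dnal1, an outer arm light chain, was lower at both ages, by -1.04 and -1.56, and Ttc25, a docking factor, by -1.19 and -1.10. Of 34 other axoneme and ciliated cell genes, 6 were called higher and 6 lower at P5 with scrambled antimiR and 12 and 4 with antimiR-34a, and at P14 8 and 2, then 19 and 1. The shares of all probes given for the regulators are the background of these counts too. Nme5 (0.70 and 0.94 at P14), Kif27 (0.72 and 0.88) and Tmem212 (0.72 and 1.11) were higher with scrambled antimiR and with antimiR-34a. Of 21 genes of intraflagellar transport and the primary cilium, 4 were called higher and 6 lower at P14 with scrambled antimiR, and 7 and 4 with antimiR-34a. At P5 the counts were 1 and 3, then 3 and 2. These lists were drawn up with results of these data known and are described by counts, medians and differences of single genes, with no test of a list.

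Markers of other cells moved with oxygen as well. At P5 with scrambled antimiR, 7 of 9 general epithelial genes and 8 of 10 type I pneumocyte genes were called higher in 85% O2, and 7 of 8 heart muscle genes and 4 of 7 skeletal muscle genes lower, where 17.5% and 26.4% of all tested probes were called higher and lower. With antimiR-34a 2 of 8 heart muscle genes and 1 of 7 skeletal muscle genes were lower and 6 of 10 type I pneumocyte genes higher. There 17.2% and 29.5% of all probes were called higher and lower. Of 8 red blood cell genes 3 were lower at P5 with scrambled antimiR and 4 with antimiR-34a, none higher. The skeletal muscle score of the P5 21% O2 scrambled antimiR mice was 1.09, -0.13, -0.30 and 4.69, high in the mice with high cilia scores. At P14, 28.4% and 32.4% of all probes were called higher and lower with scrambled antimiR and 27.8% and 37.8% with antimiR-34a. Of 9 general epithelial genes 7 were called higher in 85% O2 at P14 with scrambled antimiR and 8 with antimiR-34a, with medians of 0.92 and 1.01, above the 0.15 and 0.39 of the members. Of 11 club and secretory cell genes 5 were higher and 5 lower, then 4 and 4. Of 5 basal cell genes 3 were lower at P14 with scrambled antimiR and 4 with antimiR-34a, none higher. Type II pneumocyte genes had 3 higher and 6 lower of 10, then 2 and 6. Type I pneumocyte genes had 4 higher and 2 lower of 10, then 4 and 3. Red blood cell genes had 3 of 7 lower, then 2, none higher, with medians of -1.15 and -0.87. Skeletal muscle genes had 5 of 7 lower with scrambled antimiR, heart muscle genes 5 of 8 and thymus genes 6 of 8, with medians of -1.71, -1.51 and -1.34. The part of these cells in the results for the cilia genes was not tested.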

How the data were processed

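Whole-lung RNA of 32 mice, 4 in each of 8 groups, was read on one-colour Agilent arrays, and the labels give the mice as separate animals. Per the file headers, the deposited intensity values were extracted with Agilent Feature Extraction 10.7.3.1, background-subtracted, with probe positions on mm9. The authors also deposited processed log2 values, used as an alternative. Here, levels were the log2 of the processed signal less each array's own 75th percentile, without control spots and outlier spots (0.211%), as a mean over replicate spots. Only probes that exceeded background well in every mouse of some group were tested. Precision is limited by the number of arrays.

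Differences were fitted with limma 3.58.1 (R 4.3.3, package data.table, version 1.17.8) over 16 arrays at P5, 16 at P14 and all 32 for age, and p-values were adjusted by Benjamini-Hochberg over every tested probe, with calls at 0.05. The fit was tested on simulated data. Each gene was described on its brightest tested probe. Values of single mice were given, for some or most of the groups, for Foxj1, the brightest member of each role and up to 5 called members per comparison with separate groups and the largest change. Of other lists up to 4 called genes per comparison could be named, and the 10 genes outside the lists that varied most like the members. Members and lists were chosen with earlier results of these data known. Alternatives were quantile and normexp (offset 50) normalization, the authors' values, other filters, only the compared groups, array weights, the methods' approximate 2-sample test, a replicate block and leaving out each mouse. A slide block was not run, as slides and groups of age and oxygen coincide.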

Additional observations from a re-analysis of the deposited data

Results flagged for a closer look

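Of 208 sets of 4 values checked, 8 held a mouse set apart from the other 3 by Dixon's criterion, where chance gives about 1 in 20. The mean over dynein heavy chains was 0.05 in mouse 3 of the P14 85% O2 scrambled antimiR group. The mean over the other ciliated cell members was 0.262 in mouse 4 of the P5 21% O2 antimiR-34a group, and that over radial spoke genes was -0.176 in mouse 1 of the P14 21% O2 antimiR-34a group. Dnah6 was 2.351 in mouse 4 of the P14 85% O2 antimiR-34a group, which also had the highest score of the cilia genes. Dnah8 was 1.088 in mouse 3 of the P5 21% O2 antimiR-34a group, and Dnah1 was -5.785 in mouse 3 of the P5 85% O2 antimiR-34a group. Dnah2 was -0.356 in mouse 4 of the P14 21% O2 scrambled antimiR group, and Spag17 was -5.171 in mouse 2 of the P14 21% O2 antimiR-34a group.

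The oxygen effect with scrambled antimiR differed between P14 and P5 for 8 of 32 genes on their brightest probes by limma's interaction term, where 40.8% of all tested probes were called. The difference of the effects was -1.256 for Dnah8 and -0.739 for Tppp3. It was 0.909 for Lrrc23, 0.855 for Dnah11, 0.804 for Rsph9, 0.796 for Tekt1, 0.712 for Dnah10 and 0.666 for Dnah2.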

How the results depend on the processing

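Oxygen and age coincide with slide and scan, 4 mice per group limit small differences, and dim probes (Dnah1, Dnah14) lie near background. The calls of Dnah8 in all 4 oxygen comparisons and of Dnah11, Rsph9, Tekt1 and Tppp3 at P14 were kept under all 17 alternatives run on each. Other calls were less stable: of 17 alternatives, 12 lost Rsph1, 10 Dnah7a and 9 Dnah10 at P5 with scrambled antimiR, 11 lost Tppp3, 10 Dnah11, 9 Ccdc40 and 8 Dnah12 at P5 with antimiR-34a, 11 lost Dnah7b at P14 with antimiR-34a and 7 lost Ccdc40 at P14 with scrambled antimiR. For age, 9 of 16 lost Dnah14 and 9 of 17 Dnah7a in 21% O2, and 9 of 17 lost Tekt2 in 85% O2. At P5 with scrambled antimiR, where 9 member probes were called, the count was 5 on the authors' values, 4 without a filter, 4 with only the compared groups and 1 by the methods' test. With antimiR-34a (10) it was 6 under normexp, 5 without a filter and 18 with only the compared groups. At P14 with antimiR-34a (25) the methods' test called 8. For antimiR-34a in 21% O2 at P5 (1), normexp and the methods' test gave 0 and array weights 3. Array weights gave 8 in 21% O2 at P14 (0), and 1 and 2 for the antimiR by oxygen differences at P5 and P14 (0 each). For age in 21% O2 (21), normexp gave 13 and the methods' test 7, and in 85% O2 (9) the methods' test gave 5. Dnah1 between ages in 85% O2 turned to 0.138 under normexp. The cause of these moves was not tested, and shares of all probes were not counted under the alternatives.

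The replicate block gave 5 and 6 calls for oxygen at P5 (scrambled antimiR, antimiR-34a) and 0 for antimiR-34a in 21% O2 at P5. The numbers were not taken as pairs: deviations of same-numbered mice had r between -0.127 and 0.155 (P5) and between -0.355 and 0.5 (P14).

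Leaving out each mouse gave 4 to 10 and 5 to 8 calls for oxygen at P5, 11 to 17 and 22 to 30 at P14, 0 to 2 for antimiR-34a in 21% O2 at P5, 0 to 1 in 85% O2 at P14, 0 to 1 for the antimiR by oxygen difference at P5, and 10 to 28 and 5 to 8 for age in 21% and 85% O2. The single calls of 1 arose without mouse 1 of the P14 85% O2 scrambled antimiR group and without mouse 2 of the P5 21% O2 scrambled antimiR group, and the 2 without mouse 3 of the latter. The member median at P14 with antimiR-34a ran from 0.145 to 0.608.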
